A study of Mus musculus with 34 samples.

Results

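The Rdh16 family is a set of retinol and steroid dehydrogenase genes that lie side by side on mouse chromosome 10. The members were taken by gene symbol as Rdh16, Rdh16f1, Rdh16f2, Rdh7 and Rdh9, which are 5 of the 51368 genes in the deposited table. The family was chosen because the counts of Rdh16f1 were known to differ between libraries depleted of ribosomal RNA (rRNA) by pull-down and unselected libraries. Comparisons of the pull-down libraries with another preparation are therefore given as values, with no test; fragment length and ramp rate, which did not enter that choice, were tested with them included.

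The series compared ways of preparing sequencing libraries from 1 liver RNA sample of a wild-type C57BL/6J mouse aged 12 weeks, with no treatment named in the labels. PolyA selection (9 libraries, batch 1) captures RNA by its tail, rRNA pull-down (9 libraries, batch 2) removes rRNA bound to probes, and rRNA digestion (9 libraries, batch 2) degrades it enzymatically. Each method covered 3 rates of temperature change in the PCR (slow, medium and fast ramp) by 3 fragment lengths (short, medium and long), 1 library for each of the 9 combinations, from 200 ng of RNA. Unselected liver RNA was prepared from 20 ng with a slow ramp and medium fragments in 3 libraries of batch 1 and 3 of batch 2, and 1 unselected heart library of the same animal belonged to batch 1. PolyA and pull-down libraries were made with different kits of one product line, of which the pull-down kit also served the unselected libraries, and digestion libraries with a kit of another line whose adapters were replaced. All groups shared the animal, adapters with unique molecular identifiers and 13 PCR cycles. All liver libraries are preparations of the same RNA, so a p-value measures only the spread between preparations.

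The labels disagree on the sex of the animal (female among the sample characteristics, male in the growth protocol). The summed counts of 4 Y-linked genes were 90 to 6062 in the liver libraries, and Xist had 0 to 10. Unselected liver libraries had totals of 19.9 to 21.7 M counts (M, 10 to the sixth power), polyA libraries 23.5 to 41.4 M and digestion libraries 20.0 to 30.2 M. Of the pull-down libraries, 8 held 23.4 to 39.2 M and the slow-ramp long-fragment library held 1.13 M. Genes typed as rRNA took 12.7% of the counts of this library and 0.00866% to 0.0216% in the other 8. Hepatocyte markers (6 genes, Alb among them) summed to 44321 to 74069 normalised CPM (counts per M) over all liver libraries, and at most 4 counts of 6 cardiomyocyte markers were found in any unselected liver library.

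Enzymes of this family belong to the short-chain dehydrogenases and sit on the membranes of the endoplasmic reticulum. They oxidise retinol to retinaldehyde, the step that precedes its oxidation to retinoic acid, and several of them also oxidise hydroxyl groups of androgens and other steroids. The liver takes up, stores and releases most of the vitamin A of the body, and hepatocytes are a main site of expression of these genes. Rdh7 and Rdh9 are known as cis-retinol and androgen dehydrogenases. Rdh16f1 and Rdh16f2 carry the name of the Rdh16 family, and no function is given for them here.

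In the GENCODE M21 annotation of GRCm38 the cluster runs, from its start, through Rdh1, Rdh16f1, Rdh9, Rdh16, the pseudogene Rdh18-ps, Rdh19, Rdh16f2 and Rdh7. Rdh16f1 (ENSMUSG00000099009) spans chr10:127759787-127792694 on the plus strand and Rdh9 (ENSMUSG00000056148) spans chr10:127776386-127792697 on the same strand, so Rdh9 lies almost wholly inside the span of Rdh16f1. The single Rdh16f1 transcript has 4 exons and 2766 bases. Its exon 1 of 464 bases lies within exon 1 of Rdh1, and its exons 2 to 4, with 2302 bases (83.2% of the transcript), lie within exons of the main Rdh9 transcript. Rdh16 (ENSMUSG00000069456) spans chr10:127801152-127846565 and Rdh16f2 (ENSMUSG00000074639) chr10:127866474-127877317, both on the plus strand. Rdh7 (ENSMUSG00000040134) spans chr10:127884028-127888817 on the minus strand.

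**Figure D1:**
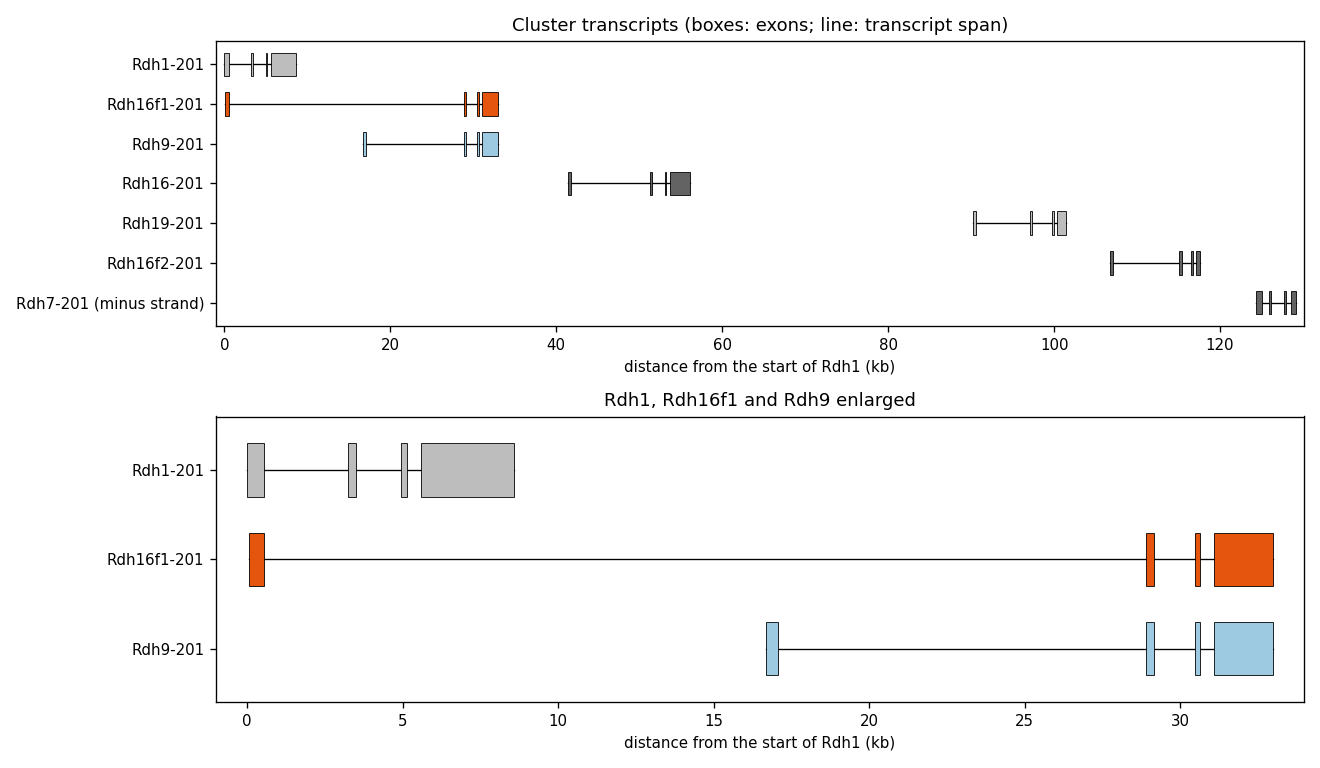
Exons (boxes) of 1 coding transcript per gene of the cluster, by distance from the start of Rdh1 in kilobases (upper panel), with Rdh1, Rdh16f1 and Rdh9 enlarged (lower panel). Exon 1 of Rdh16f1 stands under exon 1 of Rdh1, and its exons 2 to 4 stand over those of Rdh9.

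The members differ at the start of their coding sequence. The first 60 coding bases are shown because, of all 60-base windows in the first coding exon, they hold the most differences between Rdh16f1 and Rdh9, while Rdh1 has none there. They were read from the GENCODE M21 transcripts, capitals mark bases that differ from Rdh16f1, and the coordinates are those of exon 1 in GRCm38.
Rdh16f1 (chr10:127759938-127759997, plus strand): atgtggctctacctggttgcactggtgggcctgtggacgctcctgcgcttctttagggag
Rdh1 (chr10:127759938-127759997, plus strand): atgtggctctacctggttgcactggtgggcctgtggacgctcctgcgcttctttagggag
Rdh9 (chr10:127776485-127776544, plus strand): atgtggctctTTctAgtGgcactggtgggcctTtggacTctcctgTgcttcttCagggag
Rdh16 (chr10:127801198-127801257, plus strand): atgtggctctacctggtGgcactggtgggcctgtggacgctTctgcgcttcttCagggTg
Rdh16f2 (chr10:127866556-127866615, plus strand): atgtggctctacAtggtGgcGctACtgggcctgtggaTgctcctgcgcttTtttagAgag
Rdh7 (chr10:127888554-127888613, minus strand): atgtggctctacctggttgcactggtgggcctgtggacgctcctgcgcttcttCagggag
In these 60 bases Rdh1 had no difference from Rdh16f1, Rdh7 had 1, Rdh16 had 4, and Rdh9 and Rdh16f2 had 8 each. Over the whole coding sequence of 951 bases, Rdh16f1 and Rdh9 were 98.7% identical. All 12 differing bases lay in the first coding exon of 313 bases and 0 after it.

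The join between exon 1 and exon 2 is shown because joining the exon 1 it shares with Rdh1 to the exon 2 it shares with Rdh9 is what sets the annotated Rdh16f1 transcript apart. Capitals mark exon 2, and 30 bases are given on each side.
Rdh16f1 (chr10:127760221-127760250 and chr10:127788608-127788637): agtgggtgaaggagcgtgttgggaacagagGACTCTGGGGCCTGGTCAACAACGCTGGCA
Rdh9 (chr10:127776768-127776797 and chr10:127788608-127788637): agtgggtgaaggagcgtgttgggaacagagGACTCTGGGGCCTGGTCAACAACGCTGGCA
Rdh16 (chr10:127801481-127801510 and chr10:127811054-127811083): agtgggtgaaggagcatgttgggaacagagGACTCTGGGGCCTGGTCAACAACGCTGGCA
Rdh7 (chr10:127888301-127888330 and chr10:127887642-127887671, minus strand): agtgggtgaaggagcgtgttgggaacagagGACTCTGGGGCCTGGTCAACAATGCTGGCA
The 60 bases of Rdh16f1 and Rdh9 were the same, and Rdh1, Rdh19 and Rdh16f2 had 0 differences from them too. Rdh16 differed by 1 base on the side of exon 1 and Rdh7 by 1 base on the side of exon 2.

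Stretches of 31 bases were counted for each gene and looked up in the transcripts of all other genes. Rdh16f1 had 0 of 2736 stretches to itself, 89.3% of them stood in Rdh9 and 20.9% in Rdh1. Of the 15352 tested genes that have transcripts in the annotation, 162 (1.06%) likewise had none of their own, and the median gene had 99.5% of its own. Rdh9 had 1004 of 3576 (28.1%) to itself, Rdh16f2 75.1%, Rdh16 77.6% and Rdh7 79.7%. The counts of Rdh16f1 and of Rdh9 are therefore uncertain taken singly, because the deposited values were estimates that divide reads between transcripts, and the sum of both genes is given beside them. The other pairs of members were 83.9% (Rdh16f2 and Rdh7) to 96.7% (Rdh16f1 and Rdh16) identical in coding sequence.

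In unselected liver RNA, Rdh7 was the highest member per unit of transcript length. TPM (transcripts per M, from counts divided by the summed exon length of the gene) in batch 1 were 178 ± 7.77 for Rdh7, 19.1 ± 0.493 for Rdh16f2, 6.51 ± 0.389 for Rdh16, 5.92 ± 0.309 for Rdh16f1 and 1.06 ± 0.165 for Rdh9 (SD, n = 3). The ranges of Rdh16 (6.24 to 6.96) and Rdh16f1 (5.56 to 6.10), neighbours in that order, lay close together without overlap. In batch 2 the order of the members was the same, with 178 ± 2.05 TPM for Rdh7 and 1.17 ± 0.100 for Rdh9 (SD, n = 3). Rdh7 stood 27.4 ± 0.586 times above Rdh16 and 9.35 ± 0.429 times above Rdh16f2 in TPM within the batch 1 libraries (SD, n = 3). These ratios rest on the length used, since the first was 14.5 with the longest transcript and the second 17.4 with the mean transcript length.

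Rdh7 was also the highest member per length after selection, while the places of Rdh16f2, Rdh16 and Rdh9 depended on the length used and on how Rdh9 was counted. In the polyA libraries Rdh7 had a mean of 1863 TPM and Rdh16f2 of 187, and Rdh9 (51.1 ± 1.84) and Rdh16 (49.7 ± 1.00; SD, n = 9) overlapped. In the digestion libraries Rdh16 (38.4 ± 1.06 TPM) stood above Rdh9 (32.3 ± 1.37; SD, n = 9) without overlap, and in the pull-down libraries 24.1 ± 3.50 and 20.6 ± 2.41 TPM (SD, n = 9) overlapped. Rdh16f1 was the lowest member in all 27 selected libraries, at 0 to 0.905 TPM. With Rdh16f1 added to Rdh9, the pair was at 6.98 TPM (6.70 to 7.26) in unselected batch 1 and overlapped Rdh16, was above it in batch 2 (7.10 to 7.44 against 6.404 to 6.479) but below it there with the longest (5.83 to 6.10 against 9.41 to 9.51) and with the mean transcript length (4.76 to 5.04 against 7.42 to 7.52). In batch 1 too it lay below Rdh16 with the longest (5.48 to 5.92 against 9.15 to 10.2) and with the mean transcript length (4.46 to 4.84 against 7.21 to 8.02). With the summed exon length it was at 51.2 after polyA selection, again overlapping. With the longest transcript as length, Rdh16 stood above Rdh9 in the polyA libraries (77.8 and 56.2 TPM), and with the mean transcript length below it (55.5 and 65.4), without overlap in either case. In the digestion libraries Rdh16f2 (45.3 to 51.0 TPM), Rdh16 (46.3 to 48.7) and Rdh9 (43.5 to 48.8) all overlapped with the mean length. TPM is a share of all counts, rRNA included, so it ranks members within a library and is not compared between methods here.

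**Figure D2:**
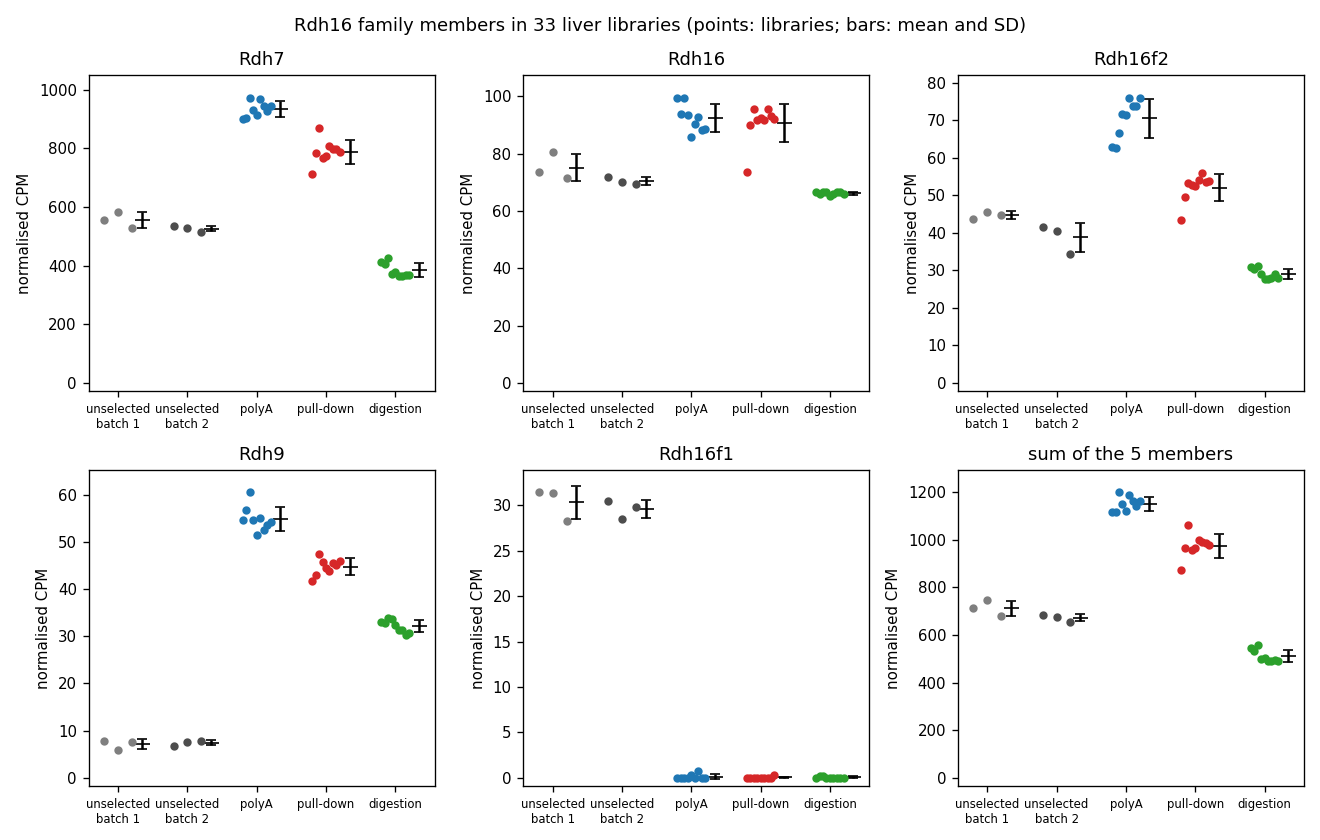
Normalised CPM (counts per M of the TMM-scaled library) of each member and of their sum in the 33 liver libraries; points are libraries, bars the mean and SD of a group. Rdh16f1 is near 0 and Rdh9 high in all 27 selected libraries, and the reverse holds in the 6 unselected ones; with library totals in place of TMM the digestion values of Rdh7, Rdh16, Rdh16f2 and the sum lie above the unselected ones.

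Rdh16f1 was counted in the unselected libraries and almost not at all after any kind of selection. Normalised CPM, the count per M after scaling each library by TMM, was 31.4, 31.4 and 28.3 in the unselected libraries of batch 1, and 30.5, 28.5 and 29.8 in those of batch 2. In the polyA libraries the lowest and the median were 0 and the highest 0.730, in the pull-down libraries 0, 0 and 0.277, and in the digestion libraries 0, 0 and 0.234. The unselected and selected libraries did not overlap in any batch.

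The raw counts show the same contrast without any scaling. The 6 unselected libraries held 135 to 153 counts of Rdh16f1. No count was assigned to Rdh16f1 in 7 of 9 polyA, 8 of 9 pull-down and 7 of 9 digestion libraries, and the highest of the other 5 held 35.1. These 22 libraries at 0 include the shallow pull-down library, and without it 7 of 8 pull-down libraries were at 0.

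Rdh9, which ends in the same exons, had the opposite pattern. Its normalised CPM was 7.88, 5.84 and 7.53 in unselected batch 1 and 6.80, 7.52 and 7.86 in batch 2. PolyA libraries had 51.6 (lowest), 54.7 (median) and 60.5 (highest), pull-down libraries 41.7, 45.2 and 47.5, and digestion libraries 30.3, 32.4 and 33.8. All selected libraries lay above all unselected ones, and the 3 methods did not overlap with each other.

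Counted together, the 2 genes varied far less. Rdh16f1 held 79.0% to 84.3% of the counts of the pair in the unselected libraries and 0% to 1.37% in the selected ones. The sum of the pair was 37.5 ± 1.77 normalised CPM in unselected batch 1 and 37.0 ± 0.843 in batch 2 (SD, n = 3). In the polyA libraries it was 55.0 ± 2.47, in the pull-down libraries 44.8 ± 1.78 and in the digestion libraries 32.2 ± 1.34 (SD, n = 9). What lies behind the opposite patterns of the 2 genes was not tested. The transcript set is not given in the sources used here, nor is it stated whether unselected and selected libraries were quantified in the same way, so a difference in quantification and one in RNA cannot be told apart in the values of either gene.

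**Figure D3:**
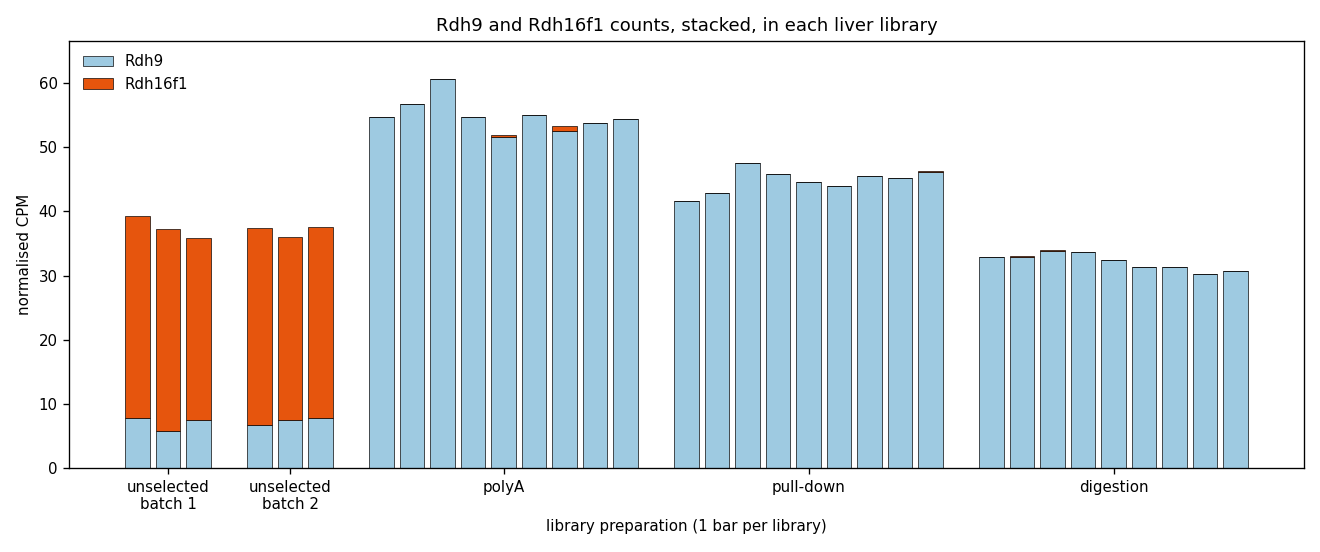
Normalised CPM of Rdh9 and Rdh16f1 stacked in each of the 33 liver libraries (1 bar per library, grouped by preparation). The stacks of the 6 unselected libraries reach 35.8 to 39.3 and are mostly Rdh16f1, and those of the selected libraries are Rdh9 with at most 0.730 of Rdh16f1.

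Rdh1, whose exon 1 holds that of Rdh16f1, was listed at 0 in all 6 unselected libraries. The 27 selected libraries held 1.02 to 20.5 counts of it, with a median of 9.16. Rdh1 is a retinol dehydrogenase and no member as chosen here. Rdh19, another coding gene of the cluster, was also at 0 in all unselected libraries and had at most 3.28 counts in a selected one, so its level was not detectable in most libraries.

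PolyA selection was tested against the unselected libraries of its own batch, with all 33 liver libraries in the fit and ramp and length as covariates. By edgeR's quasi-likelihood test with Benjamini-Hochberg adjustment over 15422 genes, Rdh7, Rdh16f2 and Rdh16 passed an adjusted p of 0.05, each of them higher. Rdh16f1 passed the filter on low counts only through the unselected libraries. Its values, and those of Rdh9 with which it shares most of its sequence, are descriptions and are not counted. In this comparison 53% of all genes tested passed, 26.9% higher and 26.2% lower (92.6% and 2.33% with library totals in place of TMM). Rdh9 rose by a log2 fold change of 2.95 (SE 0.08). Rdh16f1 fell by 8.41 on the log2 scale (SE 0.81), a fitted value that depends on how the fit treats libraries at 0. With the counts of both genes added before the fit, an alternative chosen after seeing the data, the log2 fold change of the pair was 0.55 (SE 0.05).

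The 3 other members rose moderately after polyA selection. Rdh7 was at 555, 582 and 527 normalised CPM in unselected batch 1 and at 899 (lowest), 931 (median) and 973 (highest) after polyA selection, a log2 fold change of 0.71 (SE 0.06, edgeR adjusted p 4.38e-12). Rdh16f2 was at 43.7, 45.6 and 44.9 against 62.6, 71.8 and 76.0, a log2 fold change of 0.65 (SE 0.07, edgeR adjusted p 1.30e-08). Rdh16 was at 73.6, 80.5 and 71.4 against 85.9, 92.6 and 99.6, a log2 fold change of 0.29 (SE 0.06, edgeR adjusted p 0.000163). No polyA library overlapped an unselected one in these 3 genes. The summed hepatocyte markers also were higher, at 67226 to 74069 normalised CPM against 52284 to 52955 in unselected batch 1, and their part in the result was not tested.

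Digestion was tested against the unselected libraries of batch 2 in the same fit, where 17.1% of all genes passed, 8.51% higher and 8.63% lower (98.0% and 0.272% with library totals). Here too kit and RNA input differed between the groups and cannot be told apart from digestion. These unselected libraries are those with which the family was chosen, so the values of Rdh16f1, and of Rdh9 with which it shares most of its sequence, are descriptions and are not counted. The log2 fold change of Rdh16f1 was -9.52 (-18.11 with DESeq2 and -6.73 with library totals), a fitted value over libraries mostly at 0. That of Rdh9 was 2.10, while the pair counted as 1 gene had -0.21, the opposite sign. Of the other 3 members 2 passed, Rdh7 and Rdh16f2, both lower.

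Rdh7 and Rdh16f2 were lower after digestion, and both turned higher when libraries were scaled by their totals in place of TMM. Rdh7 was at 534, 529 and 515 normalised CPM in unselected batch 2 and at 364 (lowest), 372 (median) and 424 (highest) after digestion. Its log2 fold change was -0.50 (SE 0.05, edgeR adjusted p 4.16e-08), and 2.32 with library totals. Rdh16f2 was at 41.6, 40.4 and 34.4 against 27.6, 29.0 and 31.1, with a log2 fold change of -0.42 (SE 0.07, edgeR adjusted p 0.000146), and 2.40 with library totals. The digestion and unselected libraries did not overlap in either gene.

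The scaling matters here because it moves all genes together. With library totals, which include the rRNA that selection removes, the median log2 fold change of all genes tested was 2.85 for digestion and 2.67 for polyA selection, against 0.04 for each with TMM. Relative to that median, Rdh7 was at -0.52, Rdh16f2 at -0.44 and Rdh16 at -0.12 after digestion with library totals, and at -0.53, -0.45 and -0.13 with TMM. Read this way these 3 genes lay below the median gene after digestion under both scalings, while Rdh9 lay above it (2.06 with TMM and 2.07 with library totals).

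Rdh16 was nearly level between digestion and unselected RNA. It was at 71.9, 70.2 and 69.3 normalised CPM in unselected batch 2 and at 65.2 (lowest), 66.5 (median) and 66.6 (highest) after digestion, without overlap. The log2 fold change of -0.10 (SE 0.06) did not pass (edgeR adjusted p 0.307), and it was 2.72 with library totals. The summed hepatocyte markers were at 44321 to 47485 normalised CPM after digestion against 51734 to 52424 in unselected batch 2, and their part in these values was not tested.

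**Figure D4:**
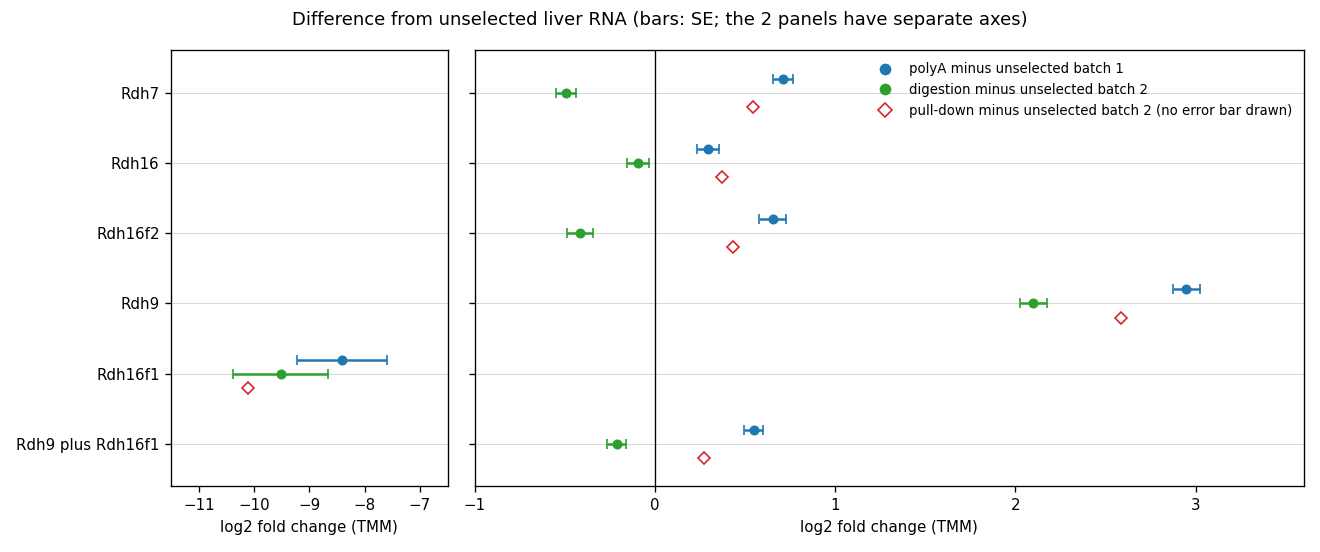
Fitted log2 fold changes (TMM scaling) from unselected liver RNA of the same batch for the 5 members and for Rdh9 plus Rdh16f1 counted as 1 gene; bars are SE, Rdh16f1 has its own axis, and pull-down is drawn without an error bar because it is a description. Rdh9 lies between 2.10 and 2.95 and the pair between -0.21 and 0.55; Rdh7, Rdh16 and Rdh16f2 lie below 0 for digestion here and above 0 with library totals.

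By their means, the pull-down libraries stood between digestion and polyA selection for Rdh7, Rdh16f2 and Rdh9. For Rdh16 the mean of 90.7 normalised CPM lay below that of polyA selection (92.5), but without the shallow library it was 92.8. The lowest, median and highest normalised CPM were 713, 788 and 868 for Rdh7, 43.3, 53.3 and 55.9 for Rdh16f2, and 73.5, 92.1 and 95.7 for Rdh16. The shallow slow-ramp long-fragment library was the lowest in each of these 3 genes, and without it the lowest values were 768, 49.7 and 90.1. Against unselected batch 2 the log2 fold changes were 0.55 for Rdh7, 0.43 for Rdh16f2, 0.37 for Rdh16, 2.59 for Rdh9 and -10.12 for Rdh16f1, of which the last was -21.34 with DESeq2 and -7.84 with library totals. Digestion and pull-down share these unselected libraries. Between the 2 rRNA methods, digestion was lower than pull-down by a log2 fold change of -1.04 for Rdh7, -0.85 for Rdh16f2, -0.49 for Rdh9 and -0.47 for Rdh16, of which the last 2 turned to 0.07 and 0.09 with library totals, where the median gene was at 0.55. Relative to the median gene, Rdh9 was at -0.48 and Rdh16 at -0.46 under both scalings.

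Markers of some other liver cell types were higher in normalised CPM in the pull-down libraries. The 5 endothelial markers summed to 211 to 260 normalised CPM there, against 162 to 176 in unselected batch 2 and 139 to 147 after digestion, and the 5 Kupffer cell markers to 152 to 216 against 101 to 108 and 72.7 to 82.2. Stellate cell markers were also higher, at 190 to 259 against 162 to 169 and 140 to 148. Those of cholangiocytes (8.99 to 23.2) and lymphocytes (12.2 to 20.6) overlapped both unselected batch 2 and digestion. As a percent of all counts the endothelial sum overlapped digestion (0.0237% to 0.0276% against 0.0232% to 0.0244%). None of these markers was at 0 in all libraries of a group, and their part in the members' values was not tested.

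PolyA and digestion libraries, which differ in batch, kit and method at once, differed in Rdh7, Rdh16f2, Rdh9 and Rdh16, all 4 higher after polyA selection. In this comparison 80.1% of all genes passed, 38% in that direction (25.2% with library totals, under which the 4 members were also higher). The log2 fold change was 1.28 for Rdh7 (SE 0.03, edgeR adjusted p 1.39e-24), 1.27 for Rdh16f2 (SE 0.04), 0.77 for Rdh9 (SE 0.03) and 0.48 for Rdh16 (SE 0.04). The polyA and digestion libraries did not overlap in any of these 4 genes. Rdh16f1, with 2 libraries above 0 in each group, entered this fit only through the unselected libraries and is not counted (log2 fold change 1.14, SE 0.88). Method and batch cannot be told apart here.

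The sum of the 5 members followed Rdh7, which made up most of it. The sum was 712 ± 32.96 normalised CPM in unselected batch 1 and 673 ± 14.5 in batch 2 (SD, n = 3). In the selected libraries the highest mean was that of polyA selection (1152 ± 30.9), followed by pull-down (977 ± 50.3) and digestion (511 ± 25.8; SD, n = 9). With unselected RNA of the respective batch as the base, the log2 difference was 0.69 for polyA and 0.54 for pull-down libraries. It was -0.40 for digestion libraries, which turned to 2.41 with library totals.

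Shares of the family's counts, which do not depend on the scaling, also moved. Rdh7 held 77.9% ± 0.246 of the counts of the 5 genes in unselected batch 1 and 78.3% ± 0.256 in batch 2 (SD, n = 3). Its share was 81.1% ± 0.261 in polyA libraries, 80.8% ± 0.613 where rRNA was pulled down and 75.0% ± 0.793 where it was digested (SD, n = 9). Rdh16 had 10.5% ± 0.235 and 10.5% ± 0.0832 in the unselected batches (SD, n = 3) against 8.03% ± 0.446, 9.28% ± 0.380 and 13.0% ± 0.619 after polyA selection, pull-down and digestion (SD, n = 9). Digestion thus had the lowest share of Rdh7 and the highest of Rdh16, without overlap with the other groups.

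The ratio of Rdh7 to Rdh16 within a library showed this most plainly. In TPM it was 26.8 to 28.0 in the 6 unselected libraries, 33.5 to 39.7 after polyA selection, 30.9 to 36.0 after pull-down and 20.3 to 23.6 after digestion. PolyA and pull-down overlapped, and digestion lay below all other groups. The ratio of Rdh7 to Rdh16f2 was 8.86 to 11.3 in unselected libraries, 9.35 to 11.01 after polyA selection, 10.7 to 12.4 after pull-down and 9.52 to 10.3 after digestion. The ranges of this second ratio overlapped between most groups, but not between pull-down and digestion.

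No member passed between the batches of unselected RNA. None of the 5 passed (0.0324% of all genes did) in edgeR's test, and 1 had an unadjusted p below 0.05, Rdh16f2 with a log2 fold change of -0.20 (SE 0.08, edgeR unadjusted p 0.0200, adjusted p 0.426). DESeq2 also called 0 members. The smallest difference was that of Rdh16f1, at -0.04 (SE 0.43), and the pair with Rdh9 had -0.01 (SE 0.06).

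Fragment length was compared in the 27 selected libraries, where Rdh16f1 was too low to be tested. Averaged over the 3 methods, none of the 4 tested members passed for long against short fragments, where 41.8% of all genes did. Rdh9 came nearest, at a log2 fold change of 0.07 (SE 0.03, edgeR adjusted p 0.0615, unadjusted p 0.0271), and it was the only one with an unadjusted p below 0.05. DESeq2 called 2, Rdh7 and Rdh9. Without the shallow pull-down library 3 passed by edgeR, Rdh16, Rdh7 and Rdh9, at log2 fold changes of 0.05, 0.08 and 0.08.

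The length effect of 2 members differed between methods. In a test of the interaction of method and length, which 24.6% of all genes passed, Rdh16f2 (edgeR adjusted p 0.00175) and Rdh7 (edgeR adjusted p 0.0492) passed, and Rdh16 (0.358) and Rdh9 (0.366) did not by the same edgeR test. The call of Rdh16 depended on the scaling (edgeR adjusted p 0.00688 with library totals), and so did that of Rdh9 (edgeR adjusted p 0.00291 with library totals). By DESeq2's likelihood-ratio test Rdh16 had an adjusted p of 0.0470. That test also took in medium fragments, so its call cannot be set against edgeR's as a difference of tool. Rdh16f2 went down with length after polyA selection and up after digestion. In the pull-down libraries its log2 fold change of -0.14 (SE 0.09) did not pass (edgeR adjusted p 0.469).

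After polyA selection, Rdh16f2 was at 73.7, 73.7 and 76.0 normalised CPM with short fragments and at 63.0, 62.6 and 66.6 with long ones, and no long-fragment library reached a short-fragment one. The log2 fold change was -0.24 (SE 0.03, edgeR adjusted p 2.77e-05). Rdh16 rose, from 92.6, 88.3 and 88.5 to 99.5, 93.8 and 99.6, by 0.10 on the log2 scale (SE 0.03, edgeR adjusted p 0.0116), and this call was lost without the fast-ramp short-fragment library (edgeR adjusted p 0.0528) and with library totals (log2 fold change 0.05, edgeR adjusted p 0.146). These were 2 of the 4 members tested, where 56.4% of all genes passed, 27.7% higher and 28.6% lower. Rdh7 had -0.04 (SE 0.03, edgeR adjusted p 0.20) and Rdh9 0.08 (SE 0.04, edgeR adjusted p 0.0890), which passed without the slow-ramp long-fragment library (edgeR adjusted p 0.0244).

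After digestion, 3 of the 4 tested members were higher with long fragments, where 18.7% of all genes passed and 9.16% were higher. Rdh7 was at 365, 368 and 367 normalised CPM with short fragments and at 413, 405 and 424 with long ones, a log2 fold change of 0.17 (SE 0.02, edgeR adjusted p 9.80e-06). Rdh16f2 was at 28.0, 29.1 and 28.0 against 30.9, 30.3 and 31.1, and Rdh9 at 31.3, 30.3 and 30.7 against 32.9, 32.9 and 33.8. Their log2 fold changes of 0.12 (SE 0.03) and 0.11 (SE 0.03) passed by edgeR (adjusted p 0.0247 and 0.0299). Leaving out the fast-ramp long-fragment, slow-ramp short-fragment or fast-ramp short-fragment library in turn lost both of these calls, and so did DESeq2 (adjusted p 0.313 and 0.325), which left Rdh7 as the only member called. The call of Rdh16f2 was also lost without the slow-ramp long-fragment library (edgeR adjusted p 0.0710), and that of Rdh9 without either medium-ramp library (edgeR adjusted p 0.0787 without the long-fragment and 0.100 without the short-fragment one). Rdh16 was at 65.8 to 66.6 in all 6 of these libraries and did not pass (edgeR adjusted p 0.984).

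In the pull-down libraries none of the 4 tested members passed for length, where 1.6% of all genes did. In edgeR and in DESeq2 alike the count was 0, with 0 members at an unadjusted edgeR p below 0.05. The shallow library is 1 of the 3 with long fragments in this comparison, and without it the count was also 0, although the genes called among all tested rose from 226 to 5413.

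**Figure D5:**
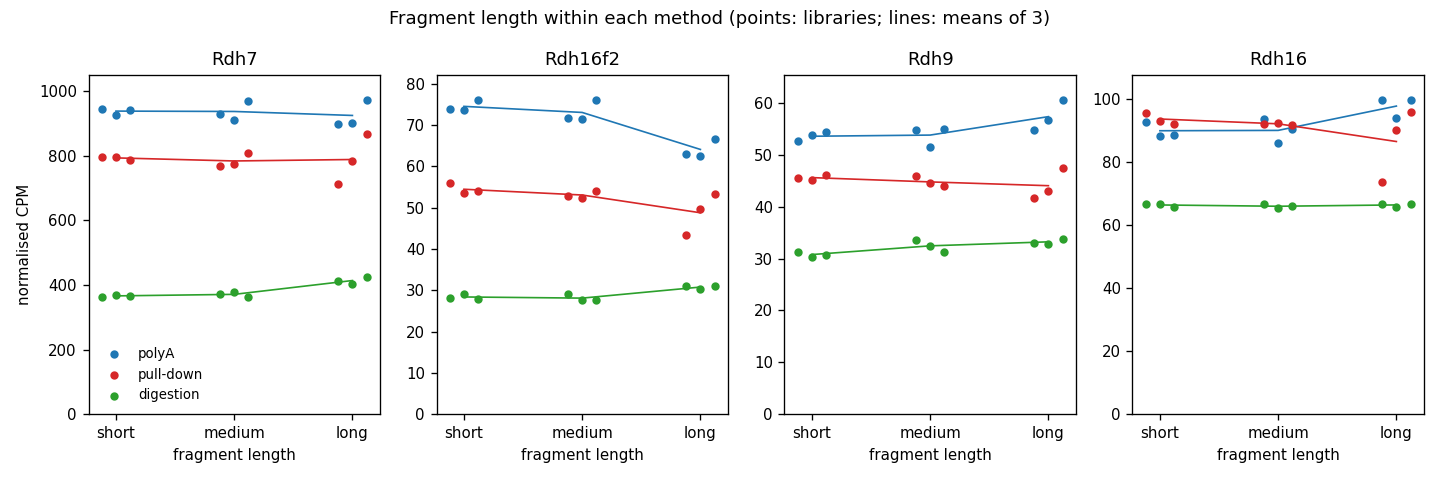
Normalised CPM of the 4 testable members by fragment length in each selection method; points are libraries (3 per length and method), lines join the means. Rdh16f2 falls from 74.5 to 64.1 with length in polyA libraries and goes from 28.4 to 30.8 in digestion libraries, and the lowest long-fragment pull-down point is the shallow library.

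The ramp rate of the PCR was compared in the same 27 libraries. None of the 4 tested members passed for fast against slow ramp by edgeR or DESeq2 (0.00692% of all genes did by edgeR), and none had an unadjusted p below 0.05. The log2 fold changes were 0.01 to 0.06, the highest in Rdh7 (SE 0.04). Mean Rdh7 levels at slow, medium and fast ramp were 925, 914 and 962 normalised CPM after polyA selection, 759, 786 and 822 after pull-down, with the shallow library among the slow ones, and 383, 383 and 385 after digestion (n = 3 each).

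Genes with the pattern most like each member were listed by Pearson's r of log2(normalised CPM + 0.5) over the 33 liver libraries, leaving out the members. The points share RNA, kit and depth within a method, so r is a description. For Rdh16f1 the first was Gm28635 (r = 0.98), a protein-coding gene on chromosome 2, at 30.3 to 59.1 normalised CPM in unselected and 0 to 1.52 in selected libraries. Only 0.616% of its 31-base stretches were its own. Ugt1a7c, a glucuronosyltransferase, the pseudogene Gm6472, Gm20547 and a gene with no symbol in the annotation followed at r = 0.97 each.

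For Rdh9 the first was Cfb, complement factor B (r = 0.99), at 161 to 208 normalised CPM in unselected and 507 to 825 in selected libraries. Cfb (chr17:34856374-34862518) lies inside the span of Gm20547 (chr17:34856412-34882042) but for its last bases, on the same minus strand. Gm20547, on the list of Rdh16f1, was at 397 to 424 in unselected and 0 to 4.18 in selected libraries. Cfb had 24.5% and Gm20547 had 2.98% of their 31-base stretches to themselves. This second pair of overlapping genes, singled out after its values were seen, was thus also low in one gene where it was high in the other.

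The genes most like the remaining members ranged widely in level. In unselected libraries they ran from Sdf2 (8.76 to 11.3 normalised CPM) to Serpina3k (4223 to 4367). Rdh7 was most like Rpl7a, a ribosomal protein gene, and Acat3, an acetyl-CoA acetyltransferase gene (r = 0.99 each), followed by Cnpy2, Sdf2 and Orm1. Rdh16 was most like Serpina3k, Nit2, Rnase4 and Bhmt (r = 0.98 each), and Rdh16f2 like Sdf4, Serpina1b, Serpina1d, Gstk1 and Pbld2 (r = 0.98 each). These genes differ in how far they share sequence, since Cnpy2 had 98.9% and Serpina1d 35.3% of their stretches to themselves.

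Of 50 other genes of retinoid metabolism and signalling, 42 were tested in the methods fit, and 30 (71.4%) passed after polyA selection, 24 higher and 6 lower, beside 53% of all genes; with library totals 41 were higher and 0 lower. Their median log2 fold change was 0.41 against 0.04 for all genes. Rdh1 was among those higher, from 0 counts in the unselected libraries, so no fold is given. Ttr, the plasma carrier that binds the retinol-binding protein, rose by 0.87 (SE 0.06) on the log2 scale. Hsd17b6, a steroid and retinol dehydrogenase and the gene outside the cluster that shared most 31-base stretches with each member, rose by 0.86 (SE 0.05). Lrat, which esterifies retinol for storage in stellate cells, and Cyp26b1, which breaks down retinoic acid, had log2 fold changes of -1.24 (SE 0.13) and -1.36 (SE 0.22) with TMM, and of 1.41 and 1.28 with library totals, where the median gene was at 2.67. The 5 stellate cell markers, Lrat among them, summed to 75.8 to 91.4 normalised CPM after polyA selection against 152 to 158 in unselected batch 1, and their part in the value of Lrat was not tested.

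After digestion 7 of the 42 passed (16.7%, beside 17.1% of all genes), 5 higher and 2 lower (41 and 0 with library totals), with a median of 0.05 against 0.04. The nuclear receptors Rara (0.48, SE 0.15) and Rxrb (0.40, SE 0.10) and Dhrs3, a retinaldehyde reductase (0.45, SE 0.07), were higher as log2 fold changes under TMM. Adh5, an alcohol dehydrogenase, and Aldh8a1, an aldehyde dehydrogenase, were lower at -0.37 each (SE 0.09 and 0.08) with TMM, but at 2.45 each with library totals, while Ttr was higher at 0.29 (SE 0.06). Against digestion, polyA libraries differed in 36 of the 42 (85.7%, beside 80.1% of all genes), 27 higher and 9 lower (20 and 13 with library totals).

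Fragment length called 23 of 41 of these genes in the polyA libraries, 8 higher and 15 lower with long fragments, beside 56.4% of all genes. Rara (-0.61, SE 0.06), Lipe, a lipase (-0.39, SE 0.06), and Rdh5, a retinol dehydrogenase of the eye and liver (-0.39, SE 0.05), were lower, and Adh7 (0.44, SE 0.15), Lrat (0.43, SE 0.10) and Lpl, lipoprotein lipase (0.38, SE 0.04), were higher as log2 fold changes. It called 10 of 41 (24.4%) in the digestion libraries, 4 higher and 6 lower, beside 18.7% of all genes, and 1 of 39 (2.56%) in the pull-down libraries, beside 1.6%. No gene of the list passed for the ramp rate or between the unselected batches.

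Of 13 neighbours and relatives of the cluster on chromosome 10, 10 were tested. After polyA selection 8 passed, 6 higher and 2 lower (10 and 0 with library totals), beside 53% of all genes. Hsd17b6 and Rdh5 (0.76, SE 0.14) rose with the members and Gpr182, a receptor gene of endothelial cells, had a log2 fold change of -1.02 (SE 0.10) with TMM and 1.63 with library totals. After digestion 1 of the 10 passed, beside 17.1% of all genes, Naca, a ribosome-associated factor gene, at -0.52 (SE 0.07) with TMM and 2.30 with library totals. Hsd17b6 was at 186 to 199 normalised CPM in unselected batch 1, 327 to 356 after polyA selection and 171 to 179 after digestion.

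The heart library, 1 library with no replicate, held almost none of the family. It had 13 counts of Rdh7, 1 each of Rdh16 and Rdh9, and 0 of Rdh16f1 and Rdh16f2 in 22.3 M counts. As a share of all counts, Rdh7 stood at 0.583 CPM in heart (95% exact Poisson interval 0.311 to 0.997, counting error only) against 125 ± 5.45 CPM in the unselected liver libraries of the same batch (SD, n = 3). A count of 0 allows up to 0.135 CPM (3 counts), below the 6.84 ± 0.355 of Rdh16f1 and the 10.1 ± 0.268 of Rdh16f2 in liver (SD, n = 3). Hepatocyte markers were at 0.00602% of counts in heart and 1.17% to 1.20% in these liver libraries, and the 6 cardiomyocyte markers at 0.847% in heart. In whole tissue, fewer cells of a type and less RNA per cell cannot be told apart.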

How the data were processed

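RNA-seq libraries of liver and heart RNA from 1 mouse were compared. The authors deposited estimated counts per gene, from Salmon 1.9.0 with UMI-tools 1.1.1 and GRCm38 named in the submitters' processing notes; the transcript set is not given in the sources used here. Salmon divides reads among transcripts that share sequence, which bears on Rdh16f1 and Rdh9. Of 51368 gene IDs, 50896 matched GENCODE M21. Counts were rounded and tested with edgeR 4.0.16 (TMM, filterByExpr, quasi-likelihood test, Benjamini-Hochberg threshold 0.05) in R 4.3.3, over 15422 genes in 33 liver libraries and 14454 in the 27 selected ones. DESeq2 1.42.0, library totals and no filter were alternatives, as was leaving out libraries. Within a method each library was left out in turn. In the other fits the shallow pull-down library was left out. In comparisons that used unselected libraries, each of those was left out in turn too. On simulated data, 82% of 1.5-fold and 98% of 4-fold changes between polyA and unselected libraries (15422 genes) were recovered. Genes were named as the 5 members, the 6 listed genes with the largest called changes per comparison, and the 5 genes most alike per member; some genes under this rule are not reported here. Members and lists were chosen with earlier results of these data known. Coding identity used Biopython 1.88, in place of the protein identity first planned. Total counts were 1.13 to 41.4 M per library (M, 10 to the sixth power), and counting error is smallest in the deepest.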

Additional observations from a re-analysis of the deposited data

Results flagged for a closer look

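In 21 groups of member values, the highest or lowest library was compared with the rest of its group; chance marks about 1 in 20 such groups. In the polyA libraries, Rdh16f1 was highest in the slow-ramp short-fragment library, at 0.730 normalised CPM, where 7 of 9 libraries were at 0. In the pull-down libraries the only one above 0 for Rdh16f1, with fast ramp and short fragments, was at 0.277. With the other 8 at 0, any value above 0 would have been marked, so that chance rate does not apply there. The slow-ramp long-fragment pull-down library, which held 1.13 M counts, 12.7% of them rRNA, was far below the others of its group in Rdh16 (73.5) and in Rdh16f2 (43.3). The part of its depth and of its rRNA in these values was not tested.

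The effect of fragment length differed between methods for Rdh16f2 and for Rdh7 by edgeR's quasi-likelihood test of the interaction (adjusted p 0.00175 and 0.0492). For Rdh16f2 the log2 fold change of long against short fragments was -0.24 in polyA and 0.12 in digestion libraries, and for Rdh7 it was -0.04 and 0.17.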

How the results depend on the processing

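Scaling by library totals in place of TMM gave log2 differences of the family sum of 3.34 for polyA selection, 2.41 for digestion (the opposite sign) and 2.79 for pull-down against unselected RNA, -0.37 for digestion against pull-down and 0.55 for polyA against pull-down. It also reversed Rdh16 (2.72), Rdh16f2 (2.40) and Rdh7 (2.32) in digestion against unselected RNA. Counting Rdh9 and Rdh16f1 as 1 gene, chosen after seeing the data, reversed Rdh9 there (-0.21). The ratio of Rdh7 to Rdh16 was 14.5 with the longest transcript and 24.0 with the mean transcript length, and that of Rdh7 to Rdh16f2 was 17.4 with the latter. Members called for long against short fragments were 1 with library totals, 2 with DESeq2 and 3 without pull-down replicate 1. Members called for the interaction were 4 with library totals. With DESeq2, 1 member was called for length in digestion, and leaving out 1 library gave 1 to 3 there and 1 to 3 in polyA. Why these values moved was not tested.

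Genes called changed by over 1.5 times from 8181 to 14640 for polyA against unselected RNA (library totals), from 2644 to 15151 (library totals) or 1724 (without unselected batch 2 replicate 2) for digestion, and from 3562 to 5901 (library totals) or 6202 (without pull-down replicate 1) for the interaction. For length they changed from 226 to 460 (library totals), 1318 (DESeq2) or 38 to 5413 (1 library left out) in pull-down and from 2785 to 1060 (DESeq2) in digestion.

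With a replicate block in the 6 unselected libraries, 0 members and 96 genes were called between batches, against 40 genes without it. Replicate numbers did not pair the libraries, since correlations of deviations were -0.00124, -0.0328 and -0.0545. Of the other values, 95 main and 446 further values were counted as unchanged. A value that passed in neither fit could change sign and still be counted so. For long against short fragments in pull-down, the log2 fold change of Rdh7 ran from -0.17 to 0.06 over 13 alternatives, all counted as unchanged. The fewest counts in all stood behind the values of the pull-down library of 1.13 M counts.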
